A study of Mus musculus with 6 samples.

Results

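The interferon-stimulated genes followed here are 40 named mouse genes whose transcription interferons are known to induce. They were compared between CD11c+ and CD11c- effector memory T cells sorted from the blood of the same 3 mice. A gene was kept where the platform annotation gave a probe set its symbol alone, and where a gene had several such probe sets the brightest on average over the 6 arrays was read. This left 37 of the 40, out of 17097 genes measured in that way. No probe set named only Isg15, Oas1a or Ifi44, so these 3 were not analysed here. For 11 of the 37 several probe sets were available, and 51 probe sets of members were read in all.

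Type I interferons bind a receptor of the chains IFNAR1 and IFNAR2, whose kinases JAK1 and TYK2 activate a transcription factor complex with STAT2 and IRF9. This complex binds the interferon-stimulated response element, or ISRE. Interferon-γ binds IFNGR1 and IFNGR2 and, through JAK1 and JAK2, acts on genes with a gamma-activated site, or GAS. In T cells as in other cells the induced genes encode antiviral enzymes, RNA and DNA sensors, GTPases that act on intracellular parasites, and the transcription factors of the pathway itself.

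Both groups came from female C57BL/6 mice 6 to 8 weeks old, kept free of specific pathogens and not infected. The labels state that a group of females received 3 mg of Depo-Provera, a progestin used to synchronise the cycle, 5 days before blood was taken, and they do not say whether any of the 3 mice used for the arrays was outside that group. From each of the mice labelled A, C and D, CD3+ CD62L- CD44high cells were divided by sorting into CD11c+ and CD11c- fractions. Each sample of 300 cells was amplified and hybridised to its own array, so each group held 3 samples, paired by mouse. Values are log2 signals after RMA, a normalisation that gives all arrays nearly the same distribution. Levels are therefore relative within an array, and in such bulk samples fewer cells of a type cannot be told apart from less RNA per cell. Means no higher than 5.90 on the log2 scale were taken as not above background. This level is the 95th percentile of 35 mean values, those of genes specific to tissues such as liver, heart and brain.

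Itgax, which encodes CD11c, was at 8.98 ± 0.074 in the CD11c+ and 4.60 ± 1.05 in the CD11c- fraction (SD, n = 3 mice), a log2 difference of 4.37 (limma, adjusted p = 0.0387). It did not pass when any 1 mouse was left out (adjusted p = 0.0848, 0.092 and 0.067 without A, C and D). The CD3 chains were above background in both, with log2 differences from -1.19 for Cd247 (adjusted p = 0.0611) to -0.49 for Cd3e (adjusted p = 0.205). Markers of other blood cells moved with the fractions. In the CD11c+ fraction 14 of 23 monocyte and macrophage markers rose, as did 8 of 14 of conventional dendritic cells, 7 of 13 of basophils and mast cells, 5 of 10 of NK cells and 3 of 11 of plasmacytoid dendritic cells. Of the other lists, 2 of 12 B cell, 1 of 12 neutrophil and 1 of 8 erythroid and platelet markers rose, and 1 NK cell marker fell. Itgax, the gene of the sort marker, is in the conventional dendritic cell list and its summed level, and its rise follows from the sort. Csf1r, Tgfbi, H2-Aa, H2-Ab1, H2-Eb1, Gzma, Csf3r and Tlr9, which also rose, are in a list that the study chose on these samples. Their direction is thus not independent evidence. The log2 summed level of the monocyte and macrophage list ran from 10.94 to 11.26 in the CD11c- and from 13.25 to 13.56 in the CD11c+ samples. That of the conventional dendritic cell list ran from 8.58 to 9.08 and from 13.71 to 14.04. For the T cell list the order was the other way, from 13.90 to 14.01 and from 13.04 to 13.31, and 2 of its 15 genes fell. The part of these cells in the results on interferon-stimulated genes was not tested.

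One interferon-stimulated gene of 37 (2.7%) rose in the CD11c+ fraction and 0 fell at an adjusted p under 0.05 over all probe sets, by limma with the mouse as a block. Of all 17097 genes, 1.4% rose and 0.222% fell, so the count of members was close to the background. Among genes above background in at least 1 fraction, 3.4% rose and 0.561% fell, against 1 and 0 of 29 members. At an unadjusted p under 0.05, 10 of 37 members were higher and 3 lower, where 7.38% and 7.44% of all genes were. Above background in at least 1 fraction, the counts were 8 and 3 of 29 members, against 956 and 929 of 6597 genes. The median log2 difference of the members was 0.32, with quartiles of -0.12 and 0.72, and that of all genes was -0.09. Centring the arrays on the CD3 chains moves the median of all genes to 0.65 and that of the members to 1.06, and 27 of 37 members then pass as higher, as do 22412 of all 45141 probe sets. All directions below are from the RMA values. Estimates of single genes, by the probe set read for each, that turn under this centring are marked where they occur. Counts, list medians and other probe sets are not marked.

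The differences were small in most members. For 28 of 37 the estimate lay within 1 of 0 on the log2 scale. The values were higher in the CD11c+ sample of 3 of 3 mice for 16 members, lower in 3 of 3 for 4, and mixed for 17. Among all 17097 genes 2149 were higher and 4532 lower in 3 of 3 mice. Among the 6597 genes above background in at least 1 fraction these counts were 1396 and 1804, and among the 29 such members 13 and 4. The groups did not overlap for 7 of 37 members with the CD11c+ samples above and 2 with the CD11c- samples above. Of all genes, 7.48% and 12.5% were separated in this way. Among the 29 members above background the counts were 4 and 2, against 14% and 14.5% of genes above background. The first of these was near the background share. The design limits what a missed threshold can show. Of the 36 members that did not pass, 16 had a 95% interval of the difference within 1 of 0, and the intervals of the other 20, that of Oas2 among them, reached past 1 or -1.

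**Figure D1:**
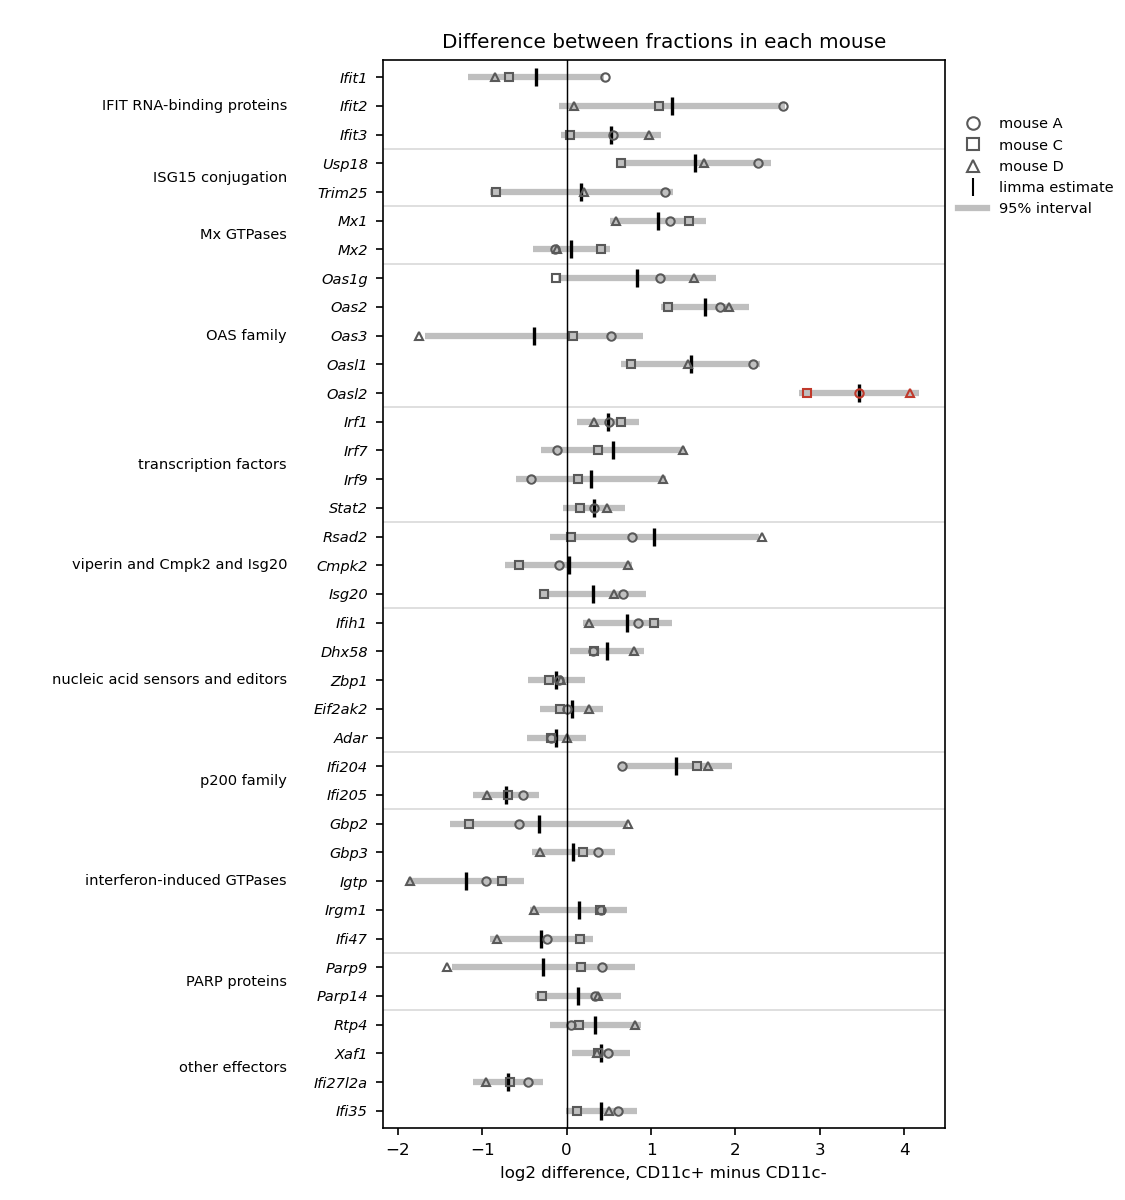
Log2 difference, CD11c+ minus CD11c-, of the 37 measured interferon-stimulated genes (horizontal axis), grouped by role. Circles, squares and triangles are mice A, C and D, black ticks the limma estimates and grey bars their 95% intervals. Oasl2, in red, is the member that passed the test, and most other estimates lie within 1 of 0.

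The promoters of these genes show what the group shares by sequence. RefSeq windows on GRCm38.p6, from 250 bases before to 50 after a transcription start, were available for 26 of the 37. The core of the ISRE was searched on both strands as GAAANNGAAA and that of the GAS as TTCNNNGAA, and no ISRE match overlapped a GAS match in a member window. An ISRE match was present for 13 of 26 members (50%), against 3.99% of all 27025 genes with a window. A GAS match was present for 7 of 26 (26.9%), against 9.55%. The 6 windows that follow are all those available for members with an estimate beyond 1 in either direction, a choice made after the values were seen. Oas2, Usp18, Mx1 and Ifi204 also had such an estimate but no window. The 6 windows thus show whether the motif was present for only some of the members in which the fractions were farthest apart. ISRE matches are in capitals.

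Oasl2, chr5:114896684-114896983, + strand, without a match: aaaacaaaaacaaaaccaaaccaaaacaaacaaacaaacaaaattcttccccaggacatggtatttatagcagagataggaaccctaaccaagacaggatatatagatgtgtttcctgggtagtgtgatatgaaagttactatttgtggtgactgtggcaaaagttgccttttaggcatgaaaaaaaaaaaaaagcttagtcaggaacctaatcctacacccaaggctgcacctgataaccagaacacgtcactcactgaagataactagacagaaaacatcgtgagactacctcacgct
Oasl1, chr5:114922990-114923289, + strand, without a match: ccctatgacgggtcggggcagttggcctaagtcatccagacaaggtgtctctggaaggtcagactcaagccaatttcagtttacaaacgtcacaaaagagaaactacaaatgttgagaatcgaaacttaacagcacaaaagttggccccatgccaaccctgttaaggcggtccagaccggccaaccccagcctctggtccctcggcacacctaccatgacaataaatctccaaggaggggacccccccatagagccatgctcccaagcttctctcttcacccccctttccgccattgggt
Ifit2, first window, chr19:34550444-34550743, + strand, without a match: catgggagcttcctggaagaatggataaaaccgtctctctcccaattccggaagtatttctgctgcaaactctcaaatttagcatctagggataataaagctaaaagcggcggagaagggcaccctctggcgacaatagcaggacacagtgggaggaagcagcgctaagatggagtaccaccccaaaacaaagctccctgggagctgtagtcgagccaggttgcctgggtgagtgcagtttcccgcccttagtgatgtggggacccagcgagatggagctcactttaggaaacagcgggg
Ifit2, other window, chr19:34550838-34551137, + strand, without a match: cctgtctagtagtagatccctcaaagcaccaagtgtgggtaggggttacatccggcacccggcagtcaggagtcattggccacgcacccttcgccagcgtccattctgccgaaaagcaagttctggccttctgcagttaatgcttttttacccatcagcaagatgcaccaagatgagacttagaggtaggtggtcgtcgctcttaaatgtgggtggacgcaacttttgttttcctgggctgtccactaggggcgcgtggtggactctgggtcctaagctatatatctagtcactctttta
Rsad2, chr12:26456403-26456702, - strand: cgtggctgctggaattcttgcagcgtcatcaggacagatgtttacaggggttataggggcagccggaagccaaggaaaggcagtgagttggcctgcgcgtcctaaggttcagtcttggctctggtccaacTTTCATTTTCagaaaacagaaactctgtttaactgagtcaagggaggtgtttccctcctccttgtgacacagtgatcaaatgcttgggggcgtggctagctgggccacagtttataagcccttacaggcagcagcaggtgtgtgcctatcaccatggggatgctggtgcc
Igtp, chr11:58199306-58199605, + strand: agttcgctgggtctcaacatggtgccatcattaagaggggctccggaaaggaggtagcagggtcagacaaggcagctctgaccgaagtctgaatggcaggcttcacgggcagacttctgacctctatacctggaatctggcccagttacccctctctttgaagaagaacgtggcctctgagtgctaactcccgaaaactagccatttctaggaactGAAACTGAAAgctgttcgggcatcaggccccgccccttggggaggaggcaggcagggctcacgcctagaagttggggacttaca

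The match of Rsad2 starts 120 bases before the transcription start and that of Igtp 34 bases before it. Thus Igtp, with the lowest estimate of the group, held a match in this window. Oasl2, with the highest, held no exact match to GAAANNGAAA in its window, nor did Oasl1 or Ifit2 in theirs. Elements that vary from this pattern or lie outside the windows were not searched. Among all members with a window, an ISRE match was present for 8 of 19 with a positive difference (42.1%). For those with a negative difference it was present for 5 of 7 (71.4%). Whether these shares differ was not tested.

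The OAS family of oligoadenylate synthetases held the gene that rose. Its active members make short oligoadenylates that switch on the ribonuclease RNase L. Oasl2 was at 5.08, 5.43 and 3.62 in the CD11c- samples of mice A, C and D and at 8.55, 8.28 and 7.70 in the CD11c+ samples. Every CD11c+ sample lay above every CD11c- sample, by 3.47, 2.85 and 4.07 within the mice. The log2 difference was 3.47 with a standard error of 0.267 (limma, adjusted p = 0.0216). Since the CD11c- mean of 4.71 was not above background, the rise is given as at least 4.85-fold. The call was lost without mouse A, where the estimate was 3.46 (adjusted p = 0.19) and 0 of all 45141 probe sets passed by limma, although 2796 were higher and 2767 lower at an unadjusted p under 0.05.

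Oas2 came closest to the threshold among the rest, with values of 5.39, 5.64 and 4.93 in the CD11c- and 7.21, 6.84 and 6.85 in the CD11c+ samples. The groups did not overlap, and the CD11c- mean of 5.32 was not above background. The log2 difference of 1.65 ± 0.195 (SE) did not pass (adjusted p = 0.0534), and it passed without the mouse block (adjusted p = 0.0202). Oasl1 is the gene next to Oasl2 on chromosome 5. It was at 3.69, 3.72 and 3.13 in the CD11c- and 5.90, 4.48 and 4.57 in the CD11c+ samples, and neither mean was above background.

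The enzymes that were above background in both fractions showed no such separation. Oas1g was at 7.53, 8.42 and 6.78 in the CD11c- and 8.64, 8.31 and 8.29 in the CD11c+ samples (log2 difference 0.83, adjusted p = 0.43), and mouse C had the lower value in the CD11c+ fraction. Oas3, which lies beside Oas2 on chromosome 5, had an estimate of -0.39 (adjusted p = 0.784) that became 0.35 with arrays centred on the CD3 chains and 0.30 without mouse D, whose CD11c- sample at 7.81 was the highest of the 6. Probe sets of the closely related OAS genes could share signal, which these values cannot separate.

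**Figure D2:**
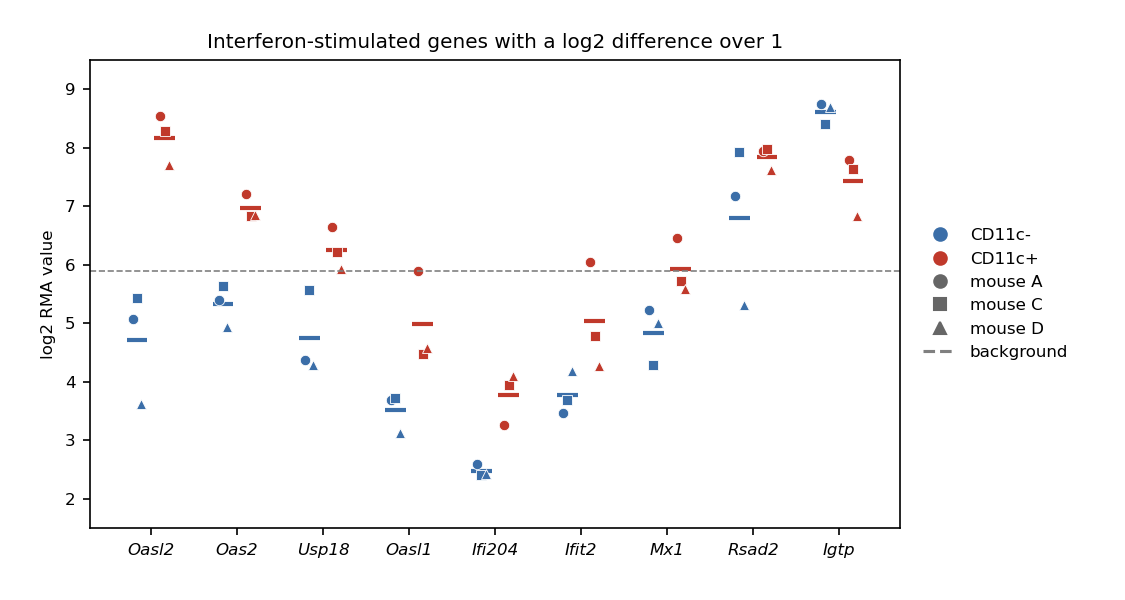
Log2 RMA values (vertical axis) of the 9 interferon-stimulated genes with an estimate beyond 1 in either direction, in CD11c- (blue) and CD11c+ (red) samples. Circles, squares and triangles are mice A, C and D, bars are group means and the dashed line is the background level of 5.90. For 7 of the 8 genes with higher CD11c+ values the CD11c- mean lies under that line, Rsad2 being the exception.

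Among the 8 members with an estimate above 1, all but Rsad2 thus had a CD11c- mean at or under background. Usp18, which removes ISG15 from proteins and restrains the type I receptor, was at 4.37, 5.56 and 4.29 in the CD11c- and 6.64, 6.21 and 5.92 in the CD11c+ samples. The groups did not overlap, with a log2 difference of 1.52 (adjusted p = 0.166). Mx1, a dynamin-like GTPase that blocks influenza virus and is defective in many laboratory strains including C57BL/6, was at 5.23, 4.28 and 5.01 and at 6.45, 5.73 and 5.59. These groups too were separate, and the difference of 1.08 did not pass (adjusted p = 0.136). Its relative Mx2 was not above background in either fraction, and Trim25, a ubiquitin ligase that also attaches ISG15, had an estimate of 0.18 (adjusted p = 0.882) that was -0.31 without mouse A.

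The IFIT proteins bind foreign RNA and hold back its translation. Ifit3 was at 7.85, 7.91 and 6.41 in the CD11c- and 8.40, 7.95 and 7.39 in the CD11c+ samples, higher in 3 of 3 mice with overlapping groups (log2 difference 0.53, adjusted p = 0.428). Ifit1 and Ifit2 were not above background in either fraction. Ifit2 and Ifit3 are neighbours on chromosome 19, and 3 genes lie between Ifit1 and Ifit3. Closely related copies make the probe sets of this family uncertain too.

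Viperin, the product of Rsad2, makes an altered nucleotide that stops viral polymerases. Rsad2 was at 7.17, 7.93 and 5.32 in the CD11c- and 7.94, 7.98 and 7.62 in the CD11c+ samples. The estimate of 1.04 (adjusted p = 0.457) rested on mouse D, whose CD11c- sample was far under the others, and within mouse C the fractions differed by 0.05. Without mouse D the estimate was 0.41. Its other probe sets gave 0.54 (adjusted p = 0.261) and 0.36 (adjusted p = 0.521). Cmpk2, the adjacent gene, which supplies the nucleotide, had an estimate of 0.03 (adjusted p = 0.976), and -0.33 without mouse D. The exonuclease gene Isg20 had one of 0.32 (adjusted p = 0.655).

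The transcription factors of the pathway were above background in both fractions, and none of the 4 passed. Irf1, a factor that responds strongly to interferon-γ, was at 9.06, 8.11 and 7.98 in the CD11c- and 9.56, 8.75 and 8.31 in the CD11c+ samples. It was higher in the CD11c+ sample of every mouse, by 0.49 on average (adjusted p = 0.24), while the groups overlapped because mice differed by more than the fractions. Stat2 was likewise higher in 3 of 3 mice, by 0.32 (adjusted p = 0.439). Irf7, which amplifies type I interferon production, and Irf9, the DNA-binding partner of STAT2, had estimates of 0.55 (adjusted p = 0.575) and 0.29 (adjusted p = 0.767), and that of Irf9 was -0.14 without mouse D.

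Sensors and editors of nucleic acids were divided. Ifih1, which encodes the RNA sensor MDA5, and Dhx58, which encodes its regulator LGP2, were higher in 3 of 3 mice by 0.72 (adjusted p = 0.239) and 0.48 (adjusted p = 0.334). A second probe set of Dhx58 gave 0.72 (adjusted p = 0.27) and the remaining one, not above background, gave -0.40 (adjusted p = 0.76). Zbp1, a sensor of left-handed nucleic acids, and Adar, which edits double-stranded RNA, both had an estimate of -0.12 (adjusted p = 0.739 and 0.745) that became 0.615 with arrays centred on the CD3 chains. Eif2ak2, the RNA-dependent kinase PKR, was not above background in either fraction.

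Besides Zbp1, 3 members had lower values in the CD11c+ sample of every mouse, and none of the 3 passed. Igtp encodes IRGM3, an immunity-related GTPase that acts at the vacuoles of intracellular pathogens. It was at 8.74, 8.41 and 8.69 in the CD11c- and 7.79, 7.64 and 6.83 in the CD11c+ samples. The groups did not overlap, and the log2 difference was -1.19 ± 0.257 (SE, adjusted p = 0.157), the one negative estimate of the 10 that did not turn with arrays centred on the CD3 chains.

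Ifi205, a member of the p200 family of DNA-binding proteins, was at 8.47, 8.25 and 8.34 in the CD11c- and 7.95, 7.56 and 7.40 in the CD11c+ samples, again without overlap. Its log2 difference was -0.72 (adjusted p = 0.145), or 0.02 with arrays centred on the CD3 chains, and a second probe set gave -1.08 (adjusted p = 0.145). The related Ifi204, separated from it by 4 genes on chromosome 1, had the opposite order at values under background, 2.60, 2.40 and 2.42 against 3.26, 3.94 and 4.10. Sequences of this family are much alike, and the probe sets could share signal.

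Ifi27l2a, a small membrane protein gene strongly induced by interferon, was at 11.35, 11.14 and 10.88 in the CD11c- and 10.88, 10.47 and 9.93 in the CD11c+ samples. The difference of -0.69 did not pass (adjusted p = 0.166), was 0.05 with arrays centred on the CD3 chains, and passed with a trended variance (adjusted p = 0.0354).

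The other interferon-induced GTPases and effectors stayed closer to 0. Gbp2 and Ifi47, GTPases of which the first belongs to the guanylate-binding proteins, had estimates of -0.33 (adjusted p = 0.775) and -0.30 (adjusted p = 0.664), which became 0.41 and 0.44 with arrays centred on the CD3 chains. Gbp3 and Irgm1 were not above background in either fraction. Parp9 and Parp14, ADP-ribosyltransferase family genes separated by 1 gene on chromosome 16, had estimates of -0.28 (adjusted p = 0.811) and 0.14 (adjusted p = 0.803), and that of Parp9 was 0.46 with arrays centred on the CD3 chains. Rtp4, Xaf1, a gene linked to apoptosis, and Ifi35 were higher in 3 of 3 mice by 0.34 (adjusted p = 0.582), 0.41 (adjusted p = 0.289) and 0.41 (adjusted p = 0.382).

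The values of these genes were ordered by mouse within both fractions. Averaged over the fractions, 30 of 37 members (81.1%) were lowest in mouse D, against 39.1% of all genes and 42.4% of genes above background. In mouse A 26 of 37 (70.3%) were highest, against 43.7% and 36.2%. In each fraction separately, mouse D was most often the lowest and mouse A most often the highest. In the CD11c- samples 25 members (67.6%) were lowest in mouse D, against 42.4% of all genes and 41.5% of genes above background. There 21 members (56.8%) were highest in mouse A, against 49.7% and 35.4%, which is near the share of all genes. In the CD11c+ samples 25 (67.6%) were lowest in mouse D, against 32.6% and 39.6%. Highest in mouse A were 31 (83.8%), against 33.1% and 35.9%. The log2 summed level of all 37 was 13.39, 13.23 and 12.88 in the CD11c- samples of mice A, C and D and 13.46, 13.12 and 12.87 in the CD11c+ samples. The brightest members, such as Ifi27l2a, weigh most in this sum. By the sum, mouse A and mouse D differed by more in the same fraction than the 2 fractions of any mouse did. The median level of the members was 7.21, 7.57 and 6.41 in the CD11c- samples of mice A, C and D. In the CD11c+ samples it was 7.63, 7.19 and 6.85, so by medians the fractions lay farther apart than by sums.

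**Figure D3:**
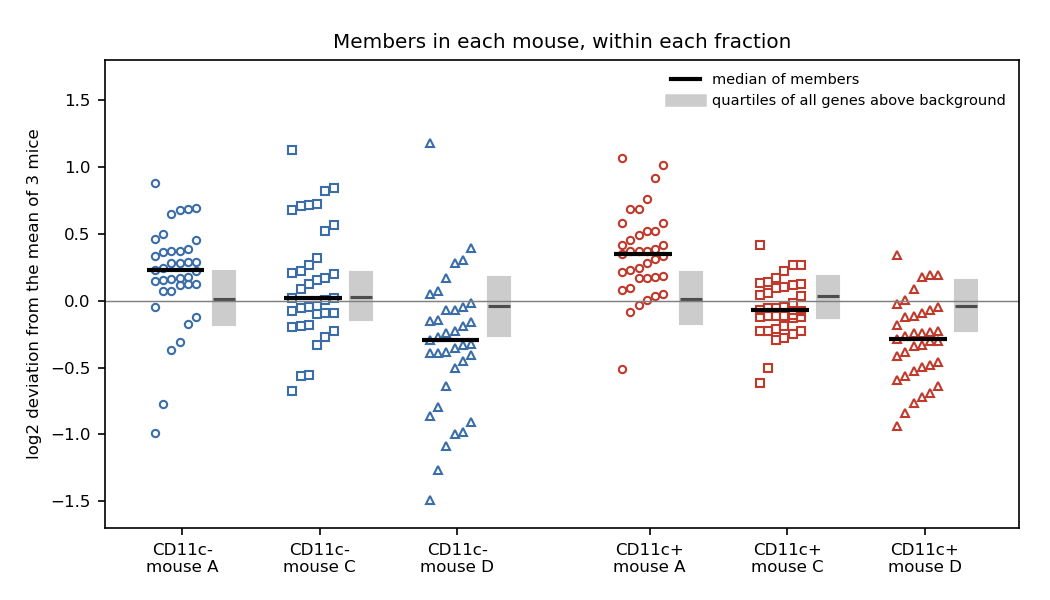
Deviation of each of the 37 interferon-stimulated genes from its mean over 3 mice (vertical axis, log2), by mouse in the CD11c- (blue) and CD11c+ (red) samples. Black bars are medians of the members, and grey boxes with ticks are quartiles and medians of all genes above background. The medians of the members are 0.23 and 0.35 in mouse A and -0.29 in mouse D in both fractions, while those of all genes above background lie within 0.04 of 0.

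For single genes the difference between mice did not pass. With the fraction kept in the model, 0 of 37 members had an adjusted p under 0.05 for the mouse, the lowest being 0.617, as had 0% of all genes. At an unadjusted p under 0.05, 9 members (24.3%) differed between mice, against 7.65% of all genes and 12.6% of genes above background. These 9 were Ifit3, Oasl2, Irf1, Ifih1, Dhx58, Zbp1, Irgm1, Xaf1 and Ifi27l2a, and all were lowest in mouse D. Dhx58 was at 7.83, 7.70 and 5.87 in the CD11c- and 8.14, 8.03 and 6.67 in the CD11c+ samples of mice A, C and D, so that both samples of mouse D lay under the other 4. Each mouse gave 2 samples, and members induced by the same factors are not independent of each other. Of the 9 marker lists, those of plasmacytoid dendritic cells and B cells had their lowest summed level in mouse D in both fractions. For plasmacytoid dendritic cells the log2 values in mice A, C and D were 8.94, 8.86 and 8.64 in the CD11c- and 10.10, 9.97 and 9.79 in the CD11c+ samples. For B cells they were 9.67, 10.55 and 9.40 and 10.70, 10.28 and 9.58. Only Pacsin1 and Klk1 of the plasmacytoid dendritic cell markers had CD11c- means above background, and of the B cell markers only Blk, Cd79b and Cd22. The CD11c- sums thus rest on few or dim probe sets and need not follow the number of these cells. The T cell list and the erythroid and platelet list were lowest in mouse D in the CD11c+ samples alone, and the NK cell, neutrophil and conventional dendritic cell lists in the CD11c- samples alone. The part of those cells in the order of the mice was not tested.

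Other genes of the pathway were taken from a list of 101, of which 80 were measured. Of these, 9 (11.2%) rose and 0 fell in the CD11c+ fraction, against 1.4% and 0.222% of all genes. Among the 9, Ifitm1, Ifitm2, Ifitm3 and Tlr9 are in the list that the study chose on these samples, so the count is not independent of it. The median log2 difference of the 80 was 0.06. The count was 0 without mouse A, 5 without mouse C and 7 without mouse D. None of the 6 measured genes for interferons passed, the largest estimates being -0.31 for Ifna5 (adjusted p = 0.418) and -0.23 for Ifna1 (adjusted p = 0.675). Both became positive with arrays centred on the CD3 chains.

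The receptor chains did not move together. Ifngr2, the signalling chain of the interferon-γ receptor, was at 6.96, 6.83 and 5.81 in the CD11c- and 8.25, 8.42 and 7.52 in the CD11c+ samples. It rose by 1.52 ± 0.149 (SE, adjusted p = 0.0354) with both means above background. The call was lost without the mouse block (adjusted p = 0.139), when any 1 mouse was left out, and when its 2 probe sets were averaged, which lowered the estimate to 0.97 (adjusted p = 0.0813). Its partner Ifngr1, the ligand-binding chain, was at 10.48, 10.37 and 10.23 and at 9.99, 9.93 and 9.84, an estimate of -0.44 that did not pass (adjusted p = 0.251). The type I receptor was divided in the same way. Ifnar2 had an estimate of 0.77 (adjusted p = 0.107) and Ifnar1 one of -0.60 (adjusted p = 0.163), each without overlap between the groups. The negative estimates of Ifngr1 and Ifnar1 became positive with arrays centred on the CD3 chains. Il10rb and Ifnlr1, the chains of the interferon-λ receptor, had estimates of -0.004 (adjusted p = 0.982), of changing sign between normalisations, and 0.12 (adjusted p = 0.8), the latter under background.

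Of the receptor kinases, Jak2, which serves the interferon-γ receptor, was at 7.18, 6.57 and 6.67 in the CD11c- and 7.87, 7.58 and 7.88 in the CD11c+ samples. The groups were separate and the difference of 0.97 did not pass (adjusted p = 0.0996). Jak1, common to both receptors, differed by 0.022 (adjusted p = 0.961), or -0.08 without mouse D, and Tyk2 by 0.32 (adjusted p = 0.623). None of the 7 feedback regulators passed. The phosphatase genes Ptpn6 and Ptpn2 had the estimates farthest from 0, at 0.90 (adjusted p = 0.0955) and -0.88 (adjusted p = 0.148).

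Outside the 37, 2 of 5 other interferon regulatory factors rose. Irf8, a factor of myeloid and dendritic cells, was at 5.42, 5.93 and 5.79 in the CD11c- and 7.87, 7.77 and 7.62 in the CD11c+ samples, at least 3.59-fold higher (log2 difference 2.04, adjusted p = 0.0313). Irf5, which acts downstream of Toll-like receptors, was at 5.66, 5.55 and 4.24 and at 7.65, 7.94 and 7.19, at least 3.24-fold higher (log2 difference 2.45, adjusted p = 0.0316). Neither CD11c- mean was above background. Irf8 did not pass when any 1 mouse was left out or after median centring (adjusted p = 0.0563), nor Irf5 without mouse A or C. Of the upstream sensing genes Tlr9, a receptor for DNA, and Unc93b1, which carries such receptors to endosomes, rose. Tlr9, with a CD11c- mean not above background, was at least 4.79-fold higher (adjusted p = 0.00654), and the log2 difference of Unc93b1 was 2.15 (adjusted p = 0.0127). Unc93b1 did not pass without mouse A or C. Irf8 and Tlr9 also belong to the plasmacytoid dendritic cell markers above.

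Among 41 further interferon-induced genes 4 rose, Ifitm1, Ifitm3, Ifitm2 and Ms4a4c. The Ifitm genes encode membrane proteins that hinder the entry of viruses. Ifitm1 was at 4.99, 5.58 and 5.04 in the CD11c- and 11.44, 11.70 and 11.72 in the CD11c+ samples, at least 52.8-fold higher (adjusted p = 0.00498). Ifitm3 was at least 35.9-fold higher (adjusted p = 0.0276), and like Ifitm1 it had a CD11c- mean not above background. The log2 differences were 5.09 for Ifitm2 (adjusted p = 0.00629) and 1.76 for Ms4a4c (adjusted p = 0.0296). After cyclic loess Ifitm3 had an adjusted p of 0.051, and Ms4a4c one of 0.0514 after median centring. The Ifitm genes and Tlr9 are in a list that the study chose on these samples, so their direction here is not independent evidence.

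**Figure D4:**
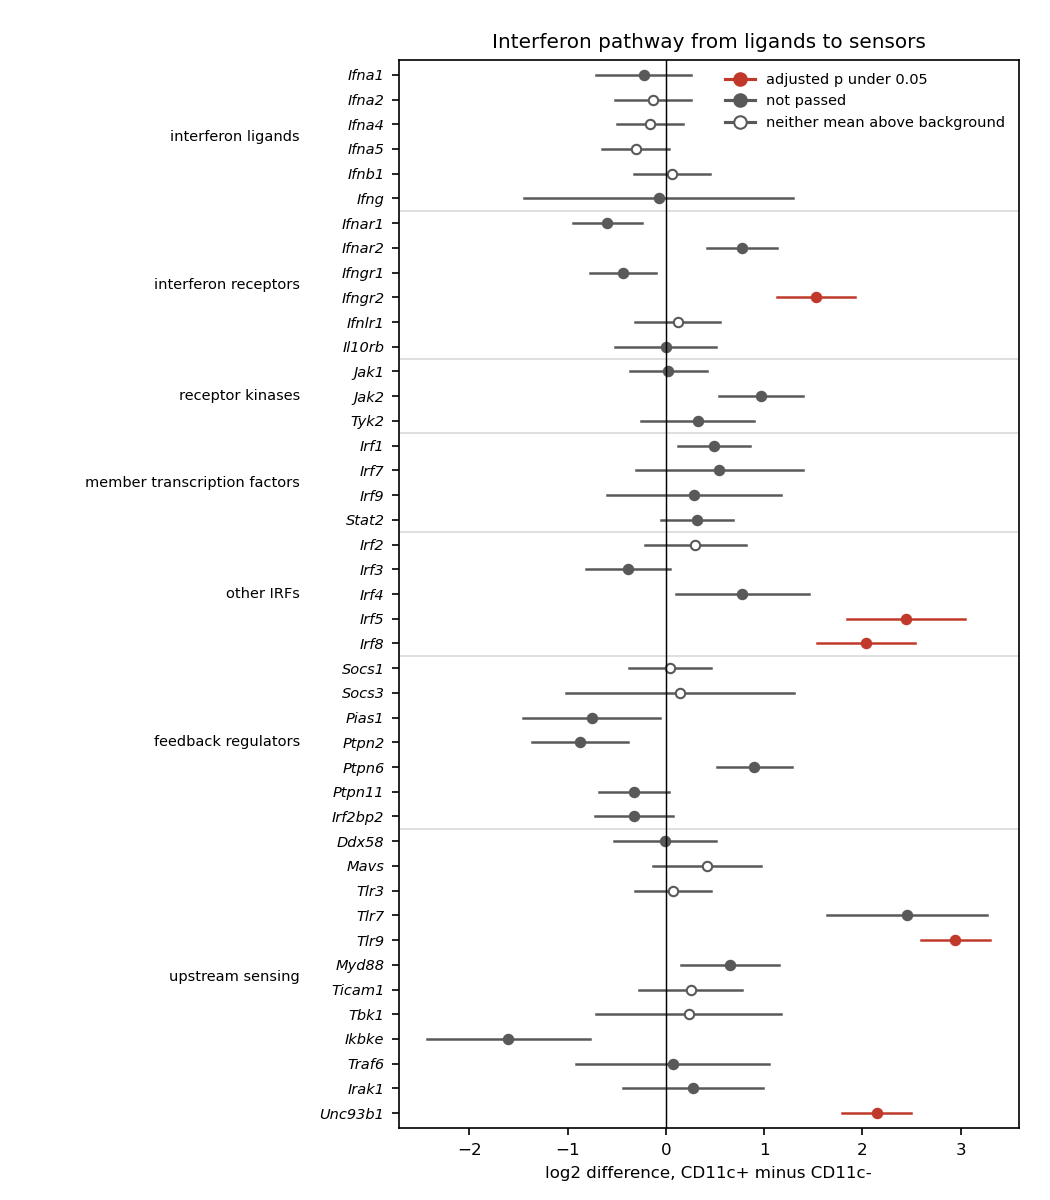
Log2 difference, CD11c+ minus CD11c- (horizontal axis), with 95% intervals, for the measured genes of the interferon pathway from the ligands to the upstream sensors, the 4 member transcription factors among them. Red points passed an adjusted p of 0.05, grey points did not, and open points had neither group mean above background. Ifngr2, Irf5, Irf8, Tlr9 and Unc93b1 are the points in red.

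The median difference of the members was 0.42, 0.15 and 0.37 in mice A, C and D. By comparison the monocyte and macrophage list had a median of 2.75, the conventional dendritic cell list one of 4.27, the basophil and mast cell list one of 4, the NK cell list one of 1.28, the plasmacytoid dendritic cell list one of 1.10 and the neutrophil list one of -0.02. Among the markers with the largest means were Ctss, a protease of antigen-presenting cells, at 8.66 in CD11c- and 10.28 in CD11c+ samples, Cd74, a chaperone of MHC class II, at 6.01 and 11.63, and Hdc, the enzyme that makes histamine, at 5.04 and 9.86. Ms4a6c, next to Ctss by mean in the monocyte and macrophage list, went the other way, at 9.70 and 8.68. So did Blk, the B cell marker with the largest mean, at 8.92 and 7.64, and neither passed. The members spanned -1.19 to 3.47, with Oasl2 alone above 2.

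**Figure D5:**
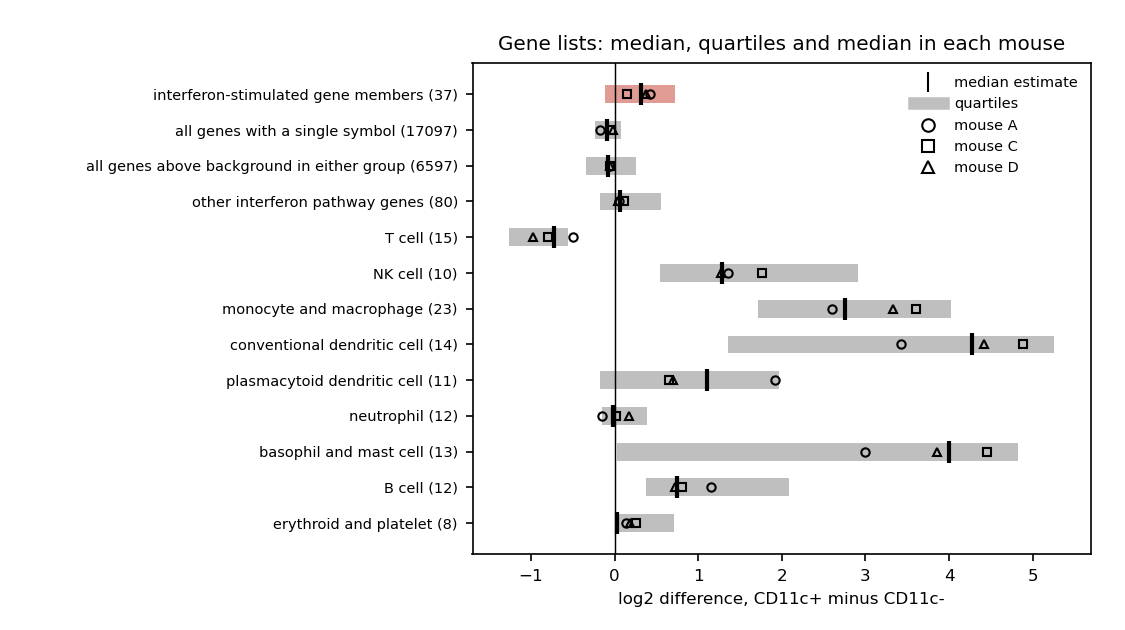
Log2 difference, CD11c+ minus CD11c- (horizontal axis), as the median (tick) and quartiles (bar) of each gene list, with the median in each mouse as a circle (A), square (C) or triangle (D). Gene numbers are in parentheses. The interferon-stimulated genes, in red, have a median of 0.32 and all genes one of -0.09, while the other lists range from -0.72 for T cells to 4.27 for conventional dendritic cells.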

How the data were processed

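Blood T cells of 3 mice were sorted by CD11c and 300 cells per sample were measured on single-colour Affymetrix HT MG-430 PM arrays. The authors extracted the image intensities, normalised and summarised them by RMA and deposited log2 values for 45141 probe sets, 104 controls among them. The sources used here name RMA and limma without versions. RMA equalises the arrays, so a change in total RNA per cell cannot be seen, and amplifying RNA of few cells can make dim probe sets noisier. Array medians ran from 4.4 to 4.537.

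Here limma 3.58.1 (R 4.3.3) was fitted to all probe sets, with a fixed term for the mouse. Tests were two-sided, and p-values were adjusted over all probe sets by the Benjamini-Hochberg method, with a threshold of 0.05. The labels assign each pair to 1 mouse. Over all probe sets, deviations of the paired arrays of mice A, C and D correlated at 0.122, 0.0758 and 0.109. Over the members these correlations were 0.17, 0.164 and -0.0288, and those of unpaired arrays ran from -0.239 to 0.133. The replicates are separate mice, and 2 residual degrees of freedom per probe set limit the precision. The platform annotation gives a single symbol to 28898 probe sets, more than 1 to 551 and no symbol to 15692, which stay unnamed here. At least N-fold values set the dim group at the higher of its own value and the background on each array.

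The members, the pathway and marker lists, the naming rule and the alternatives were chosen with earlier results of these data known. The rule named all measured members, every receptor and kinase, up to 4 called genes of each other pathway role (otherwise the 2 with the largest change), and the markers with the largest means. Alternatives were the block, normalisation, scaling on the CD3 chains, a filter, the variance model, the threshold, the probe set of a gene and leaving out each mouse. On simulated data for the comparison of the fractions over 45141 probe sets, log2 changes of 1 were recovered at 0%, those of 2 at 56% and those of 4 at 92% (50 each), with 4 false calls of 125. Promoter sequences are from RefSeq.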

Additional observations from a re-analysis of the deposited data

How the results depend on the processing

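Oasl2 passed under each alternative except leaving out mouse A. The count of higher members, 1 with the mouse block, was 2 with no replicate block and 3 with a random replicate block, where Oas2 and, with the random block, Ifi204 were added. It was 2 with a filter on dim probe sets, a trended variance, an adjusted p under 0.1 or averaged probe sets, each adding Oas2, and 27 with arrays centred on the CD3 chains. Leaving out a mouse gave 0 to 1. The count of lower members, 0, was 1 with a trended variance (Ifi27l2a), and 0 to 0 without a mouse. Of the other pathway genes 54 were higher with the CD3 centring, against 9, and 0 to 7 without a mouse. The count of lower ones, 0, was 1 with no replicate block, a random replicate block, the CD3 centring or a trended variance. The median of the members, 0.32, was 1.06 with the CD3 centring and 0.28 to 0.42 without a mouse. No alternative gave a member that differed between mice. The CD3 centring turned the sign of Ifit1 to 0.38, Oas3 to 0.35, Zbp1 to 0.615, Adar to 0.615, Ifi205 to 0.022, Gbp2 to 0.41, Ifi47 to 0.44, Parp9 to 0.46, Ifi27l2a to 0.047, Ifna5 to 0.43, Ifna1 to 0.51, Ifnar1 to 0.14, Ifngr1 to 0.30, Il10rb to 0.735 and Cd3e to 0.25. This centring adds 1 constant to each array, which raises all differences alike. Averaged probe sets turned Adar to 0.003 and Il10rb to 0.070, and Il10rb was 0.071 after cyclic loess and 0.024 with median centring. Leaving out a mouse in turn gave estimates of both signs, -0.315 to 0.683 for Trim25, -0.122 to 0.152 for Mx2, -0.841 to 0.296 for Oas3, -0.140 to 0.642 for Irf9, -0.326 to 0.319 for Cmpk2, -0.042 to 0.126 for Eif2ak2, -0.859 to 0.086 for Gbp2, -0.063 to 0.278 for Gbp3, -0.626 to 0.293 for Parp9, -0.030 to 0.233 for Ifnlr1, -0.212 to 0.159 for Il10rb and -0.083 to 0.123 for Jak1. None of the genes that turned had passed the test, and apart from the constant of the CD3 centring the cause was not tested.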
